A study of Mus musculus with 16 samples.

Results

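The 37 genes of the mouse mitochondrial genome were described: 13 mRNAs, 2 rRNAs and 22 tRNAs, taken as every gene that GENCODE M21 places on the mitochondrial chromosome, out of 52636 genes in the count table. The libraries came from CRAFR26 cells of the type that the labels call RSC, a mouse pluripotent cell type obtained by differentiating targeted embryonic stem cells. All carry a c-RAF construct through which 4-hydroxytamoxifen (4OHT) switches on the kinase ERK. The cells were kept in N2B27 medium with IWP2, the MEK inhibitor PD03 and LIF, and all 4 groups then had 48 h in 250 nM of the FGF receptor inhibitor PD17 in place of PD03. The group 0h received no 4OHT, 2h and 4h had 250 nM 4OHT for 2 or 4 h, and rev had 4 h of 4OHT followed by a further 2 h with MEK inhibitor, whose dose at that step the labels do not give. Rev libraries are therefore also 2 h older than 4h libraries, and no group had MEK inhibitor without 4OHT or vehicle alone. Each group holds 4 libraries, 2 from clone 4 and 2 from clone 8, and each clone is a single line. The labels do not say whether the 2 libraries of a clone came from separate cultures, so p-values measure the spread between these libraries, which may be technical.

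Mitochondrial DNA is a small circle transcribed from both strands into long precursors. The heavy-strand promoters give RNAs that read along the plus strand of the reference, with both rRNAs, nearly all mRNAs and most tRNAs, and the light-strand promoter gives mt-Nd6 and the remaining tRNAs. The tRNAs punctuate the other genes, and their excision by RNase P (with Trmt10c) and Elac2 releases the mRNAs and rRNAs. The mRNAs encode core subunits of complex I (the mt-Nd genes), complex III (mt-Cytb), complex IV (mt-Co1, mt-Co2 and mt-Co3) and the ATP synthase (mt-Atp6 and mt-Atp8), which assemble with many nuclear-encoded subunits. Copies of mitochondrial DNA also sit in nuclear chromosomes as pseudogenes.

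A run of 6 mRNAs held 1 count in all. mt-Co2, mt-Atp8, mt-Atp6, mt-Nd3 and mt-Nd4l stood at 0 in all 16 libraries, and mt-Co3 had 1 count in rev clone 4 library 2 and 0 elsewhere. These genes encode subunits of complex IV (mt-Co2, mt-Co3), the ATP synthase (mt-Atp8, mt-Atp6) and complex I (mt-Nd3, mt-Nd4l). All 6 lie wholly within chrM:6390-11042, a stretch of 4653 bases whose genes align to 7 annotated pseudogenes on the minus strand of chromosome 1. No other mRNA lies wholly in that stretch: mt-Co1 and mt-Nd4 lie partly in it, and the lowest total of the 7 mRNAs outside or partly outside it was 44380 counts over the 16 libraries. A gene at 0 allows up to 3 counts in a library, so the data give no level for these 6 mRNAs, and nothing about their expression can be read from the 0. How the authors' counting treated reads that match a mitochondrial gene and its nuclear copy equally is not given in the sources used here, and its part in these zeros was not tested.

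The sequences show how close the chromosome 1 copy is, and are printed for the pairs where any base differs and for mt-Co2. They are copied from the GENCODE M21 transcripts (build GRCm38, the assembly also named mm10), 5′ to 3′, and capitals mark the bases that differ within each pair. Positions in substitutions are counted from 1 at the start of the mitochondrial gene, with the mitochondrial base first.
mt-Nd3 (chrM:9459-9518, plus strand): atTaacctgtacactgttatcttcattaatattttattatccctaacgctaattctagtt
Gm28438 (chr1:24613060-24613119, minus strand): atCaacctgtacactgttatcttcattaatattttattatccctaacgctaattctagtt
mt-Co1 (chrM:6390-6449, plus strand): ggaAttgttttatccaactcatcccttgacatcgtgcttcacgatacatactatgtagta
Gm29216 (chr1:24616129-24616188, minus strand): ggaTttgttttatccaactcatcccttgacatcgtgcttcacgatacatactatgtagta
mt-Co2 (chrM:7013-7072, plus strand): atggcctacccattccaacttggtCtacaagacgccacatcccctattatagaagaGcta
Gm28661 (chr1:24615506-24615565, minus strand): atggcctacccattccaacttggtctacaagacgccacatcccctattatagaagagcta
Gm13341 (chr2:22587903-22587962, minus strand): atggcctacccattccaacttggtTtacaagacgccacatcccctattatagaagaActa
The mt-Nd3 pair differs by T3C and by nothing else over 345 aligned bases, and the mt-Co1 pair by A1066T alone over 483. Gm28661, the chromosome 1 copy of mt-Co2, matched it at all 681 aligned bases and therefore shows no capitals, and Gm10925 (mt-Atp6), Gm28437 (mt-Co3), Gm10222 (mt-Nd4l) and Gm28439 (the first 876 bases of mt-Nd4) also matched without a mismatch. mt-Atp8 has no annotated copy of its own, but it lies between mt-Co2 and mt-Atp6, whose copies keep the same order and spacing on chromosome 1. The more diverged copy of mt-Co2 on chromosome 2, Gm13341, differs from it at 2 of the 60 bases shown and is 95.9% identical over the whole gene.

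Counts on the nuclear copies were low. Gm28438, the mt-Nd3 copy, had counts of 10 and 18 in clone 4 and 31 and 26 in clone 8 at 0h. At 2h, Gm28438 stood at 40 and 43 in clone 4 and 47 and 40 in clone 8. At 4h, Gm28438 stood at 27 and 10 in clone 4 and 21 and 12 in clone 8, and at rev it stood at 39 and 61 in clone 4 and 13 and 21 in clone 8, 459 in all. These counts are not scaled to library size, so they do not compare the groups. Every library thus had counts on Gm28438, whose reference sequence carries the C of T3C, and none on mt-Nd3. None of the 16 held more than 61 counts on Gm28438. The values are counts per gene, so the base that the reads carried at that position is not known. The other 6 chromosome 1 copies held 5 to 41 counts over the 16 libraries. On chromosome 2, Gm13340, which is 97.6% identical to the whole of mt-Co1, held 127 counts and Gm13341 held 111, against 275613 on mt-Co1 itself.

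**Figure D1:**
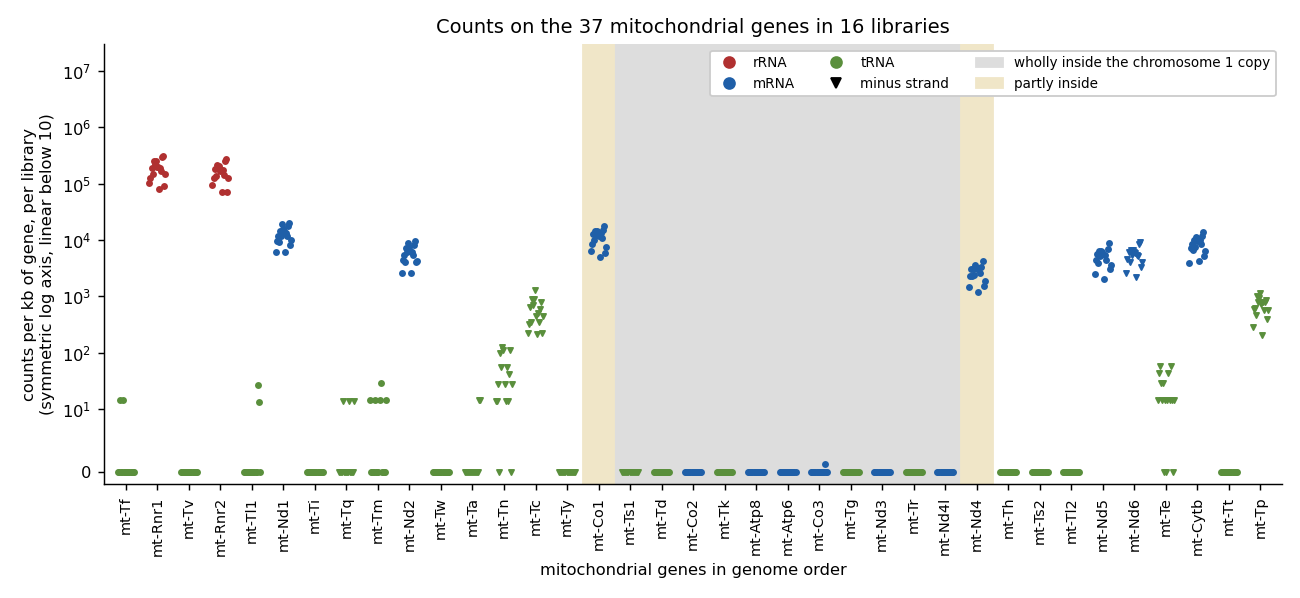
Counts per kb of gene length in each of the 16 libraries (1 point per library, symmetric log axis that is linear below 10) for the 37 mitochondrial genes in genome order; triangles are minus-strand genes. The 11 genes on grey lie wholly inside the stretch copied on chromosome 1 and sit at 0 except for 1 count on mt-Co3; mt-Co1 and mt-Nd4, on tan, lie partly inside.

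By class and annotated strand, the rRNAs held 6943686 counts over all libraries, the 12 plus-strand mRNAs 922003, mt-Nd6 on the minus strand 44380, the 8 minus-strand tRNAs 1394 and the 14 plus-strand tRNAs 11. Among the minus-strand tRNAs, mt-Tp (proline) and mt-Tc (cysteine) made up most of the counts, with 14 to 78 and 14 to 87 per library, followed by mt-Tn (asparagine) with 0 to 9 and mt-Te (glutamate) with 0 to 4. mt-Tc and mt-Tn border a gap of 32 bases between genes, and mt-Tp is the last gene annotated. The remaining minus-strand tRNAs, mt-Tq, mt-Ta, mt-Ty and mt-Ts1, held 3, 2, 0 and 0 counts in all, as few as the plus-strand tRNAs. mt-Tf, the first gene annotated and on the plus strand, held 2. The part of gene position in these counts was not tested. At 0 in every library stood 11 of the 14 plus-strand tRNAs and 2 of the 8 minus-strand tRNAs. The 5 tRNAs wholly inside the copied stretch are among those at 0, but so are plus-strand tRNAs outside it such as mt-Tv, between mt-Rnr1 and mt-Rnr2, and mt-Tt, next to mt-Cytb. The tRNA genes are at most 75 bases long, and how far the extraction, the fragment selection or the treatment of overlapping features sets these low counts was not tested. The library kit, by the catalogue number in the labels, does not mark the strand of the RNA, so counts on a gene can include RNA from the opposite strand, and the strand here is that of the annotation. The whole genes of the tRNAs with enough counts to test are, 5′ to 3′ on the minus strand and with no bases marked:
mt-Tc (chrM:5192-5257, minus strand): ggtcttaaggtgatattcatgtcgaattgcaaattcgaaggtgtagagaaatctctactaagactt
mt-Tp (chrM:15356-15422, minus strand): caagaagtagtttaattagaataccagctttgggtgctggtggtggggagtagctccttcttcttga

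Of the 37 genes, 11 passed the filter on low counts: both rRNAs, mt-Nd1, mt-Nd2, mt-Co1, mt-Nd4, mt-Nd5, mt-Nd6, mt-Cytb, mt-Tc and mt-Tp. Their levels are given as CPM, counts relative to the library size after scaling by the trimmed mean of M values (TMM), and per kb of the gene outside the copied stretch when genes are compared, as if no count fell inside it (mean ± SD, n = 16 libraries). mt-Rnr1 (12S rRNA) stood at 23644 ± 5979 CPM per kb and mt-Rnr2 (16S rRNA) at 20671 ± 4724, as what remained after depletion with a kit whose probes also target mitochondrial rRNA. The mRNAs followed in the order mt-Co1 (2084 ± 446 CPM per kb), mt-Nd1 (1592 ± 369), mt-Cytb (1089 ± 257), mt-Nd4 (934 ± 183), mt-Nd2 (745 ± 201), mt-Nd6 (687 ± 178) and mt-Nd5 (643 ± 153). Over their full length, mt-Co1 would stand at 1433 CPM per kb, below mt-Nd1, and mt-Nd4 at 340.1, the lowest of the 7 mRNAs. Within libraries, mt-Co1 stood above mt-Nd1, mt-Nd1 above mt-Cytb and mt-Nd4 above mt-Nd2 in 16 of 16, and mt-Cytb above mt-Nd4 and mt-Nd6 above mt-Nd5 in 15 of 16. mt-Nd2 stood above mt-Nd6 in only 11 of 16, so their order is not fixed by these data. mt-Nd6, the only mRNA annotated on the minus strand, thus lay among the complex I mRNAs annotated on the other strand, though its counts can include RNA from that strand. mt-Tp (84.7 ± 22.1 CPM per kb) and mt-Tc (67.0 ± 20.1) lay well below every mRNA.

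Library totals ranged from 4313599 to 10444126 counts, of which 6 nuclear features (CT010467.1, Gm26917, Mir6236, Lars2, Gm23935 and Gm15564), each above 1% of all counts, took 42.2% to 75.6%. The largest of these features, CT010467.1, is annotated as an rRNA and alone took 19.3% to 43.0%, so much of this share is rRNA that remained after depletion. Rev clone 8 library 1 stood apart with the highest share in these features and a TMM factor of 0.537, against 0.899 to 1.40 in the others. The mitochondrial rRNAs took 3.26% to 7.37% and the mitochondrial mRNAs 0.546% to 0.992% of all counts. The 8 markers of pluripotent cells summed to 937 to 1629 CPM, while 4 lists of other cell types (primitive endoderm, trophectoderm, primed or streak cells, fibroblasts) summed to at most 9.90 CPM in any library and the 2-cell-like list to at most 17.2. Because libraries were made from bulk RNA, fewer cells of a type and less RNA per cell cannot be told apart.

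**Figure D2:**
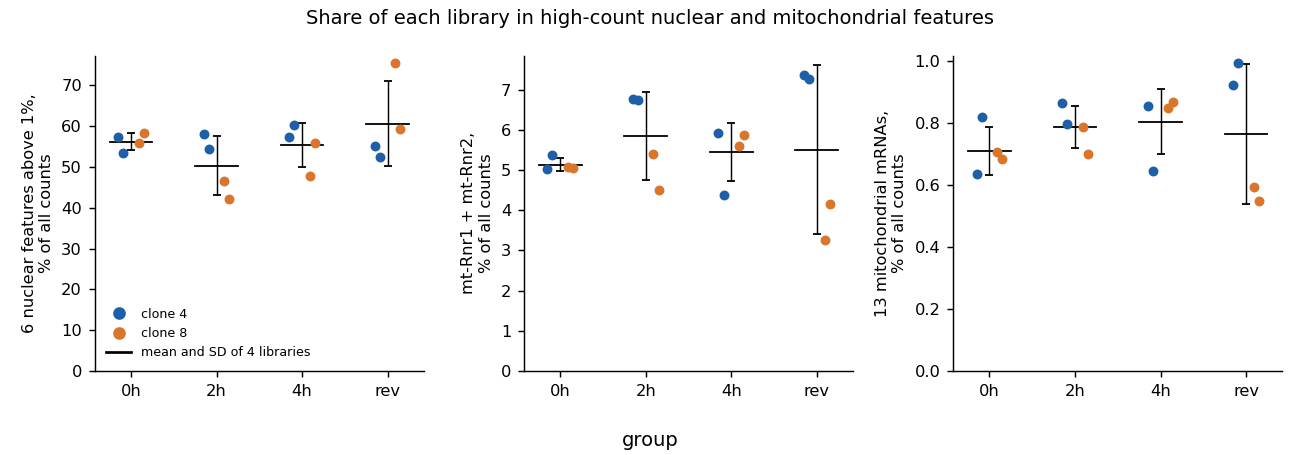
Share of each library's counts in the 6 nuclear features above 1%, in the 2 mitochondrial rRNAs and in the 13 mitochondrial mRNAs, by group (points are libraries coloured by clone, bars are the mean and SD of 4). The rev libraries of clone 8 have the lowest shares in rRNA (3.26% and 4.15%) and in mRNA, and 1 of them the highest share in nuclear features.

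At 2 h of ERK induction, 1 of the 11 tested mitochondrial genes was called, the cysteine tRNA gene mt-Tc, which was higher. mt-Tc counts were 15 and 21 in clone 4 and 43 and 23 in clone 8 at 0h and 59 and 47 in clone 4 and 59 and 87 in clone 8 at 2h. mt-Tc, scaled to library size, had CPM of 3.0 and 3.18 in clone 4 and 4.46 and 3.31 in clone 8 at 0h. At 2h, mt-Tc stood at 7.65 and 6.50 in clone 4 and 4.48 and 6.10 in clone 8. At 4h, mt-Tc stood at 3.87 and 3.56 in clone 4 and 3.32 and 3.52 in clone 8, and at rev it stood at 4.40 and 5.14 in clone 4 and 4.54 and 3.71 in clone 8. All 4 libraries at 2h were above every 0h library, although clone 8 library 1 at 2h (4.48) only just exceeded clone 8 library 1 at 0h (4.46), and by 4h the values were back within the 0h range. mt-Tc rose by 0.76 (SE 0.19) on the log2 scale at 2h against 0h (adjusted p = 0.00992, edgeR's quasi-likelihood test) and fell by 0.77 (SE 0.19) from 2h to 4h (adjusted p = 0.0147, same test). Of the 11 genes, 1 was called at 2h against 0h, where 17.0% of all 12742 tested genes were called, and 1 at 4h against 2h, where 12.1% were. Within clones the 2h change of mt-Tc was 1.19 (SE 0.28) in clone 4 (adjusted p = 0.002, edgeR's quasi-likelihood test) and 0.42 (SE 0.24) in clone 8 (adjusted p = 0.235), and no single left-out library ended the pooled call. Scaling by library totals ended it, at a value of 0.88 (adjusted p = 0.092, edgeR's quasi-likelihood test), and likewise the call from 2h to 4h, at -0.90. Cell-type markers were called at 2h against 0h as well: all 3 tested 2-cell-like markers were higher (Zscan4d 1.89), as were the 1 tested trophectoderm marker (1.92), the primed-cell marker Eomes (1.07) and 3 of 8 pluripotency markers, with 1 of the 8 lower. The 2-cell-like markers summed to 0.276 to 17.2 CPM at 2h and 0.909 to 4.57 at 0h, so not every 2h library was above 0h. The trophectoderm sums overlapped too, at 0.421 to 5.45 and 0.144 to 1.97. Over the 4 groups all 3 2-cell-like markers were called higher in clone 8 than in clone 4, while the mt-Tc change was larger in clone 4. From 2h to 4h the trophectoderm marker was called lower, at -1.89. The part of these markers in the values of mt-Tc was not tested.

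The other tRNA that could be tested did not pass. mt-Tp had CPM of 3.80 and 6.06 in clone 4 and 4.25 and 4.45 in clone 8 at 0h. At 2h, mt-Tp stood at 8.69 and 7.46 in clone 4 and 4.71 and 5.47 in clone 8. At 4h, mt-Tp stood at 6.53 and 3.56 in clone 4 and 5.43 and 5.82 in clone 8, and at rev it stood at 5.99 and 5.53 in clone 4 and 8.17 and 4.86 in clone 8. The groups overlapped, and the 2h change was 0.45 (SE 0.22) (adjusted p = 0.159, edgeR's quasi-likelihood test). mt-Tn, the neighbour of mt-Tc on the same strand, was too low to test. Its counts were 1 and 1 in clone 4 and 2 and 0 in clone 8 at 0h and 7 and 4 in clone 4 and 9 and 8 in clone 8 at 2h. They were 2 and 1 in clone 4 and 4 and 1 in clone 8 at 4h and 3 and 8 in clone 4 and 0 and 2 in clone 8 at rev. Its 2h libraries held 4 to 9 counts, against at most 4 at 0h and 4h and up to 8 at rev. The mRNA and rRNA values at 2h lay on both sides of 0, from -0.09 for mt-Nd4 to 0.35 for mt-Nd2, with a median over the 7 mRNAs of 0.05 against 0.00 over all tested genes.

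**Figure D3:**
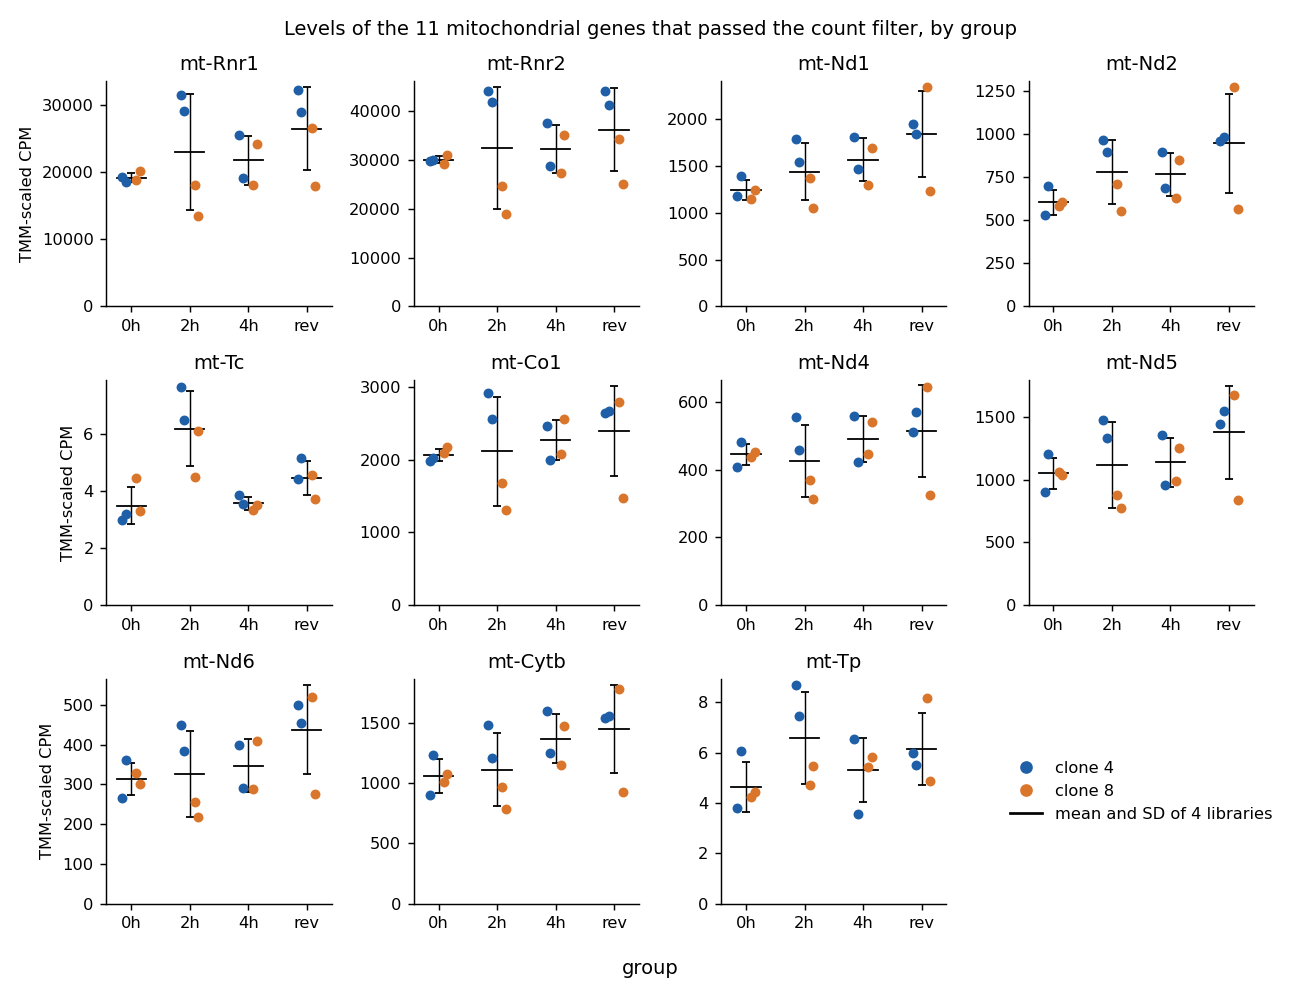
CPM (TMM-scaled) of the 11 mitochondrial genes that passed the count filter in each library, by group (blue clone 4, orange clone 8, bars the mean and SD of 4 libraries, axes from 0). At 2h both clone 4 libraries lie above both clone 8 libraries in every panel, and the mean of mt-Tc is highest at 2h.

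The rRNAs, mt-Co1, mt-Nd5 and mt-Nd6 lay on opposite sides of their 0h range in the clones at 2h. mt-Rnr1 had CPM of 19257 and 18534 in clone 4 and 18792 and 20073 in clone 8 at 0h. At 2h, mt-Rnr1 stood at 31422 and 29096 in clone 4 and 18105 and 13438 in clone 8. At 4h, mt-Rnr1 stood at 25566 and 19085 in clone 4 and 18086 and 24170.4 in clone 8, and at rev it stood at 32258 and 28968 in clone 4 and 26587 and 17842 in clone 8. At 0h all 4 libraries lay within 18534 to 20073, while at 2h both clone 4 libraries were above that range and both clone 8 libraries below it. mt-Rnr2 had CPM of 29687 and 30085 in clone 4 and 29264 and 30962 in clone 8 at 0h. At 2h, mt-Rnr2 stood at 44119 and 41841 in clone 4 and 24761 and 18921 in clone 8. At 4h, mt-Rnr2 stood at 37481 and 28860.1 in clone 4 and 27363 and 35109 in clone 8, and at rev it stood at 44172 and 41338 in clone 4 and 34292 and 24978 in clone 8. At 2h clone 4 again lay above and clone 8 below the 0h range. mt-Co1, the catalytic subunit of complex IV, had CPM of 1984 and 2023 in clone 4 and 2087 and 2180.3 in clone 8 at 0h. At 2h, mt-Co1 stood at 2915 and 2567 in clone 4 and 1675 and 1304 in clone 8. At 4h, mt-Co1 stood at 2463 and 1994 in clone 4 and 2073 and 2555 in clone 8, and at rev it stood at 2644 and 2669 in clone 4 and 2800.3 and 1477 in clone 8. Its 2h values split by clone in the same way. So did those of mt-Nd5, at 1480 and 1333 in clone 4 and 878 and 779 in clone 8, against 905 to 1208 at 0h. For mt-Nd6 they were 449 and 383 in clone 4 and 257 and 218 in clone 8, against 265 to 360.4 at 0h.

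Taking clone 8's change minus clone 4's change at 2h against 0h, the interaction was -0.98 (SE 0.28) for mt-Rnr1 (adjusted p = 0.0265, edgeR's quasi-likelihood test) and -0.99 (SE 0.28) for mt-Rnr2 (adjusted p = 0.0235). It was -0.97 (SE 0.25) for mt-Co1 (adjusted p = 0.0125, same test) and -0.82 (SE 0.26) for mt-Nd6 (adjusted p = 0.0469). These 4 of the 11 genes differed between the clones in their 2h change, against 7.94% of all tested genes, and all 11 had a lower value in clone 8, from -0.35 for mt-Nd1 to -0.99 for mt-Rnr2. Within clone 4, from the same model over all libraries, mt-Rnr1 rose by 0.68 (SE 0.20) (adjusted p = 0.0127) and mt-Nd2 by 0.60 (SE 0.20) (adjusted p = 0.0288), and with mt-Tc these were the 3 genes called there, against 23.7% of all genes. Within clone 8, mt-Co1 fell by 0.52 (SE 0.18) (adjusted p = 0.041, edgeR's quasi-likelihood test), the only gene of the 11 called there, against 15.8%.

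The clone difference at 2h rested on few libraries. Without 0h clone 8 library 2 or 2h clone 8 library 2 the count of 4 became 0, without 0h clone 4 library 2 or 0h clone 8 library 1 it became 1, without 2h clone 4 library 1 it became 2, and without either rev library of clone 8 it became 6. It was 1 with DESeq2. With scaling by library totals it was 0, and the values were -0.41 for mt-Rnr1, -0.41 for mt-Rnr2, -0.39 for mt-Co1 and -0.23 for mt-Nd6. The share of counts in the 6 nuclear features above 1%, which include the rRNA feature CT010467.1, moved with it. In percent, it was 57.4 and 53.4 in clone 4 and 55.9 and 58.2 in clone 8 at 0h and 58.2 and 54.4 in clone 4 and 46.7 and 42.2 in clone 8 at 2h. The 2h libraries of clone 8 had the lowest shares of these groups and the highest TMM factors (1.26 and 1.40). In percent of all counts, the mitochondrial rRNAs were 5.02 and 5.37 in clone 4 and 5.08 and 5.05 in clone 8 at 0h and 6.77 and 6.73 in clone 4 and 5.40 and 4.51 in clone 8 at 2h. The mRNAs were 0.633 and 0.818 in clone 4 and 0.704 and 0.683 in clone 8 at 0h and 0.864 and 0.796 in clone 4 and 0.785 and 0.698 in clone 8 at 2h. On that scale, 1 of the 2 clone 8 libraries at 2h lay below the 0h range for rRNA and none for mRNA, and the part of library composition in the difference was not tested.

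**Figure D4:**
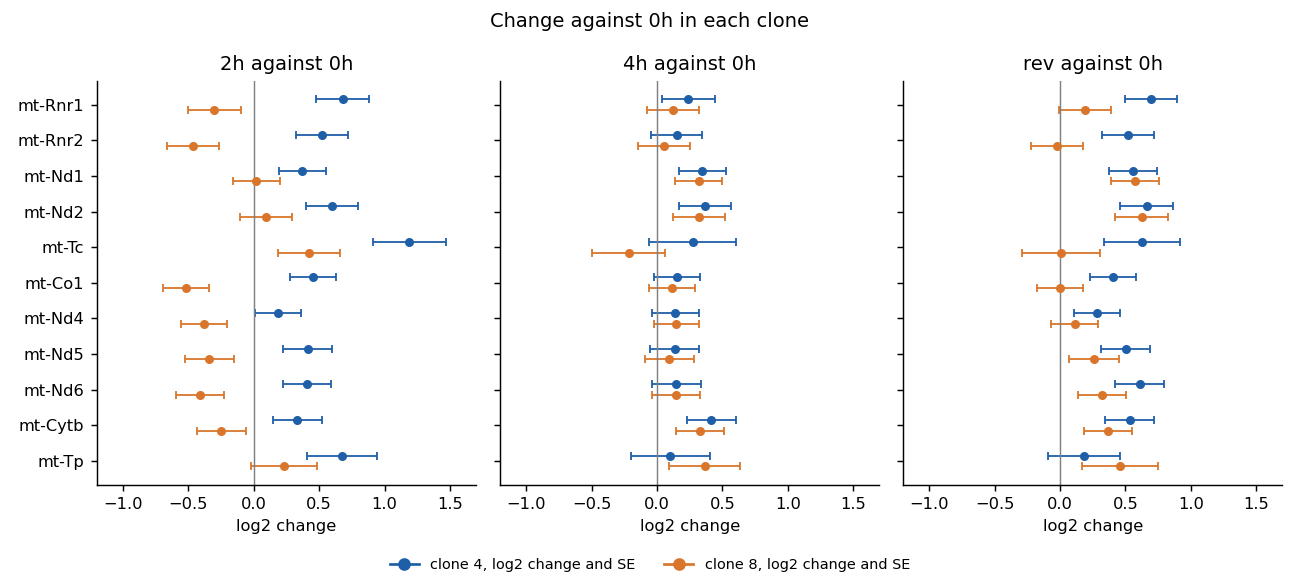
Log2 change against 0h with its SE in clone 4 (blue) and clone 8 (orange) for the 11 tested mitochondrial genes, from the model on 8 group and clone combinations. At 2h the clones lie on opposite sides of 0 for mt-Rnr1, mt-Rnr2, mt-Co1, mt-Nd4, mt-Nd5, mt-Nd6 and mt-Cytb, at 4h the mRNAs and rRNAs of the clones lie together, and at rev the fitted changes of mt-Nd1 and mt-Nd2 are near equal in both, in clone 8 from libraries that stand apart from each other.

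After 4 h of induction, 0 of the 11 genes were called against 0h by edgeR's quasi-likelihood test or by DESeq2, and 2 had an unadjusted p under 0.05, while 12.9% of all tested genes were called. Those 2 were mt-Cytb, at 0.37 (SE 0.17) (adjusted p = 0.161), and mt-Nd1, at 0.33 (SE 0.16) (adjusted p = 0.168). mt-Cytb, the complex III subunit, had CPM of 901 and 1236 in clone 4 and 1012 and 1073 in clone 8 at 0h. At 2h, mt-Cytb stood at 1484 and 1208 in clone 4 and 971 and 785 in clone 8. At 4h, mt-Cytb stood at 1598 and 1252 in clone 4 and 1149 and 1472 in clone 8, and at rev it stood at 1538 and 1552 in clone 4 and 1775 and 922 in clone 8. Its 4h values overlapped the upper 0h value of 1236. In 10 of the 11 genes the 4h value was positive, with a median of 0.15 against -0.01 over all tested genes. The comparisons of 2h, 4h and rev with 0h share the same 0h libraries. A difference between clones in the 4h change was called for 0 of 11 genes (0 at unadjusted p under 0.05, 0 by DESeq2), against 5.72% of all genes. The SE of those differences was 0.25 to 0.43 on the log2 scale.

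After MEK inhibitor, 2 complex I mRNAs were higher than before induction. mt-Nd1, which encodes a core membrane subunit of complex I, had CPM of 1179 and 1398 in clone 4 and 1151 and 1248 in clone 8 at 0h. At 2h, mt-Nd1 stood at 1788 and 1545 in clone 4 and 1374 and 1055 in clone 8. At 4h, mt-Nd1 stood at 1814 and 1463 in clone 4 and 1302 and 1695 in clone 8, and at rev it stood at 1952 and 1839 in clone 4 and 2344 and 1233 in clone 8. Of the 4 rev values, 3 lay above every 0h value, and rev clone 8 library 2 (1233) lay inside the 0h range. mt-Nd2, another core membrane subunit, had CPM of 529.6 and 697 in clone 4 and 580.1 and 603 in clone 8 at 0h. At 2h, mt-Nd2 stood at 967 and 892 in clone 4 and 708 and 554 in clone 8. At 4h, mt-Nd2 stood at 895 and 687 in clone 4 and 630.1 and 847 in clone 8, and at rev it stood at 961 and 983 in clone 4 and 1269.5 and 565 in clone 8. Again 3 rev values lay above the 0h range and rev clone 8 library 2 inside it. mt-Nd1 rose by 0.57 (SE 0.16) (adjusted p = 0.0261, edgeR's quasi-likelihood test) and mt-Nd2 by 0.64 (SE 0.18) (adjusted p = 0.0297) at rev against 0h. These were the 2 genes called of 11, against 10.5% of all tested genes. The fitted changes were 0.56 in clone 4 and 0.57 in clone 8 for mt-Nd1, and 0.66 and 0.63 for mt-Nd2. In clone 8 they rest on rev library 1, the library with the lowest TMM factor, at 2344 and 1269.5 CPM, while rev library 2, at 1233 and 565, lay within the 0h range of the 4 libraries. A fit to clone 4 libraries alone called 8 genes and a fit to clone 8 alone called 0. The 10.5% belongs to the pooled fit, and the shares of all genes called in these separate fits are not given here. Among cell-type markers at rev against 0h, the 1 tested trophectoderm marker (2.06), Eomes (0.78), 1 of 2 tested primitive endoderm markers and 1 of 3 2-cell-like markers (Zscan4d 1.53) were called higher, and of 8 pluripotency markers 1 was higher and 1 lower. At rev the 2-cell-like markers summed to 0.0970 to 15.1 CPM, against 0.909 to 4.57 at 0h. The part of the cell-type markers in the values of mt-Nd1 and mt-Nd2 was not tested.

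All 11 genes had a positive value at rev against 0h, from 0.19 for mt-Co1 to 0.64 for mt-Nd2, and their median was 0.38 against 0.00 over all genes. When libraries were scaled by their totals, 8 of 11 were positive and 0 were called, with mt-Nd1 at 0.25 and mt-Nd2 at 0.31, and the median over all genes moved to -0.24. Relative to that, the median of the 11 was 0.33 higher. The 2 calls were both lost without 0h clone 4 library 1, 0h clone 8 library 1, rev clone 4 library 1 or rev clone 8 library 1, and mt-Nd2 was lost without rev clone 4 library 2. Without rev clone 8 library 1 the values were 0.36 for mt-Nd1 and 0.38 for mt-Nd2. Without rev clone 8 library 2 they were 0.70 and 0.82 and 4 genes were called. mt-Nd6, the complex I subunit of the other strand, had CPM of 265 and 360.4 in clone 4 and 329 and 302 in clone 8 at 0h. At 2h, mt-Nd6 stood at 449 and 383 in clone 4 and 257 and 218 in clone 8. At 4h, mt-Nd6 stood at 400.1 and 292 in clone 4 and 288 and 410.1 in clone 8, and at rev it stood at 499.8 and 455 in clone 4 and 520.5 and 275 in clone 8. Its rev values spanned from the 0h range to well above it, and its value at rev against 0h was 0.46 (SE 0.19) (adjusted p = 0.125, edgeR's quasi-likelihood test).

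Against 4h, 0 of the 11 genes were called at rev by edgeR's quasi-likelihood test or DESeq2 and 0 had an unadjusted p under 0.05, where 9.61% of all tested genes were called. Values ran from 0.05 for mt-Nd4 to 0.31 for mt-Nd6, all 11 positive, but with scaling by library totals 4 were positive and the median over all genes was -0.20. Against 2h, 0 were called by either tool and 4 had an unadjusted p under 0.05 (mt-Nd1, mt-Nd6, mt-Cytb and mt-Tc), where 1.78% of all genes were called; mt-Tc alone of these 4 was lower, at -0.47 (SE 0.19) (adjusted p = 0.229, edgeR's quasi-likelihood test). A difference between clones in the change from 4h to rev was called for 0 of the 11 (0 at unadjusted p under 0.05, 0 by DESeq2, against 13.2% of all genes). This count rose with scaling by library totals and with no filter, so the 0 depended on the processing. It also changed without rev clone 8 library 1, in a fit that left 1 clone 8 library at rev.

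In the fit over all 4 groups, both rRNAs were called lower in clone 8 than in clone 4, but not every group showed this. mt-Rnr1 was -0.36 (SE 0.14) (adjusted p = 0.0498, edgeR's quasi-likelihood test) and mt-Rnr2 -0.39 (SE 0.14) (adjusted p = 0.0301) in clone 8 against clone 4. These were 2 of 11 genes called, where 34.9% of all genes were, and all 11 had a negative value, also with library totals, with a median of -0.24 against -0.01 over all genes. The library values above show that the clones did not separate at 0h or 4h for either rRNA, and did separate at 2h and rev. The calls depended on single libraries: 0 genes were called without any 1 of the 2h libraries, without rev clone 4 library 1 or without rev clone 8 library 2, and 1 without 4h clone 4 library 1, 4h clone 8 library 1 or rev clone 4 library 2. Without rev clone 8 library 1, the library with the lowest TMM factor, 9 of the 11 genes were called, and the share of all genes called in that fit is not given here. Cell-type markers also differed between the clones. All 3 tested 2-cell-like markers were called higher in clone 8, while the 1 tested trophectoderm marker (-3.07) and 1 of 2 tested primitive endoderm markers were called lower. Of the 8 pluripotency markers, 3 were called higher (Nanog 0.93, Tdgf1 0.61, Esrrb 0.31) and 2 lower (Otx2 -0.95, Zfp42 -0.35). The summed level of the 2-cell-like markers was 0.909 to 4.57 CPM at 0h, 0.276 to 17.2 at 2h, 0.762 to 7.96 at 4h and 0.0970 to 15.1 at rev. The part of these markers in the clone difference was not tested.

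Ratios between mitochondrial genes within a library do not depend on how the library is scaled. The ratio chosen for the test was mt-Nd6 to its neighbour mt-Cytb, which is annotated on the opposite strand. The library kit does not mark the strand, so the ratio compares counts on these genes, not RNA from each strand. In counts, it was 0.294 and 0.292 in clone 4 and 0.325 and 0.281 in clone 8 at 0h. At 2h it was 0.302 and 0.317 in clone 4 and 0.265 and 0.278 in clone 8. It was 0.250 and 0.233 in clone 4 and 0.251 and 0.279 in clone 8 at 4h and 0.325 and 0.293 in clone 4 and 0.293 and 0.299 in clone 8 at rev. The 4h libraries lay below all 0h and all rev libraries. The log2 ratio at 4h was -0.24 against 0h and at rev 0.26 against 4h, each with an exact two-sided permutation p of 0.0286, the smallest that 4 against 4 libraries allow. The adjusted p of this test was 0.0857 for each over the 6 group comparisons, so neither passed. With only these comparisons at that smallest p, no adjusted p under 0.05 was possible. Not passing is therefore no evidence that the ratio was unchanged. The ratio did not separate the clones (-0.02, exact permutation within groups, p = 0.71). With mt-Nd5 in place of mt-Cytb the 4h value against 0h was 0.03, with overlapping groups, and with the sum of all plus-strand mRNAs it was -0.09, also overlapping.

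The makeup of the mRNA pool is described here without a test because the shares were looked at after the values were known. In percent of all counts on mitochondrial mRNAs, mt-Cytb was 17.6 and 17.7 in clone 4 and 16.7 and 16.8 in clone 8 at 4h. These values lay above every library of 0h (14.6 to 16.7), 2h (14.4 to 15.7) and rev (16.1 to 16.4), although the 4h and 0h ranges nearly touched. mt-Nd4, with 502 bases outside the copied stretch, was 6.63 and 6.51 in clone 4 and 6.57 and 6.55 in clone 8 at 0h, above all libraries of the other groups, which ran from 5.35 to 6.49. mt-Nd2 was lower in 3 of the 4 0h libraries than in any induced or rev library, at 8.58 and 9.41 in clone 4 and 8.71 and 8.74 in clone 8. Among the 7 mRNAs with counts, mt-Co1 took the largest share in every library, at 25.4 to 32.1 percent, and its groups overlapped. The 6 mRNAs with no readable level are missing from this pool.

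The ratio of the rRNAs separated 0h from all other groups. mt-Rnr2 counts per mt-Rnr1 count were 1.54 and 1.62 in clone 4 and 1.56 and 1.54 in clone 8 at 0h and 1.40 and 1.44 in clone 4 and 1.37 and 1.41 in clone 8 at 2h. They were 1.47 and 1.51 in clone 4 and 1.51 and 1.45 in clone 8 at 4h and 1.37 and 1.43 in clone 4 and 1.29 and 1.40 in clone 8 at rev. All 0h libraries lay above every other library, and the 4h libraries lay between 0h and the 2h and rev libraries, without overlap on either side. This order, also noticed after the values were known and not tested, was the same in both clones. The genes are adjacent on 1 precursor, separated by mt-Tv, and are both targets of the depletion probes, so a difference in depletion and a difference in the RNA itself cannot be told apart from these counts. The summed rRNA counts per mRNA count, by contrast, overlapped between all groups, at 6.57 to 7.93 at 0h, 6.46 to 8.46 at 2h, 6.61 to 6.94 at 4h and 5.52 to 8.00 at rev.

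**Figure D5:**
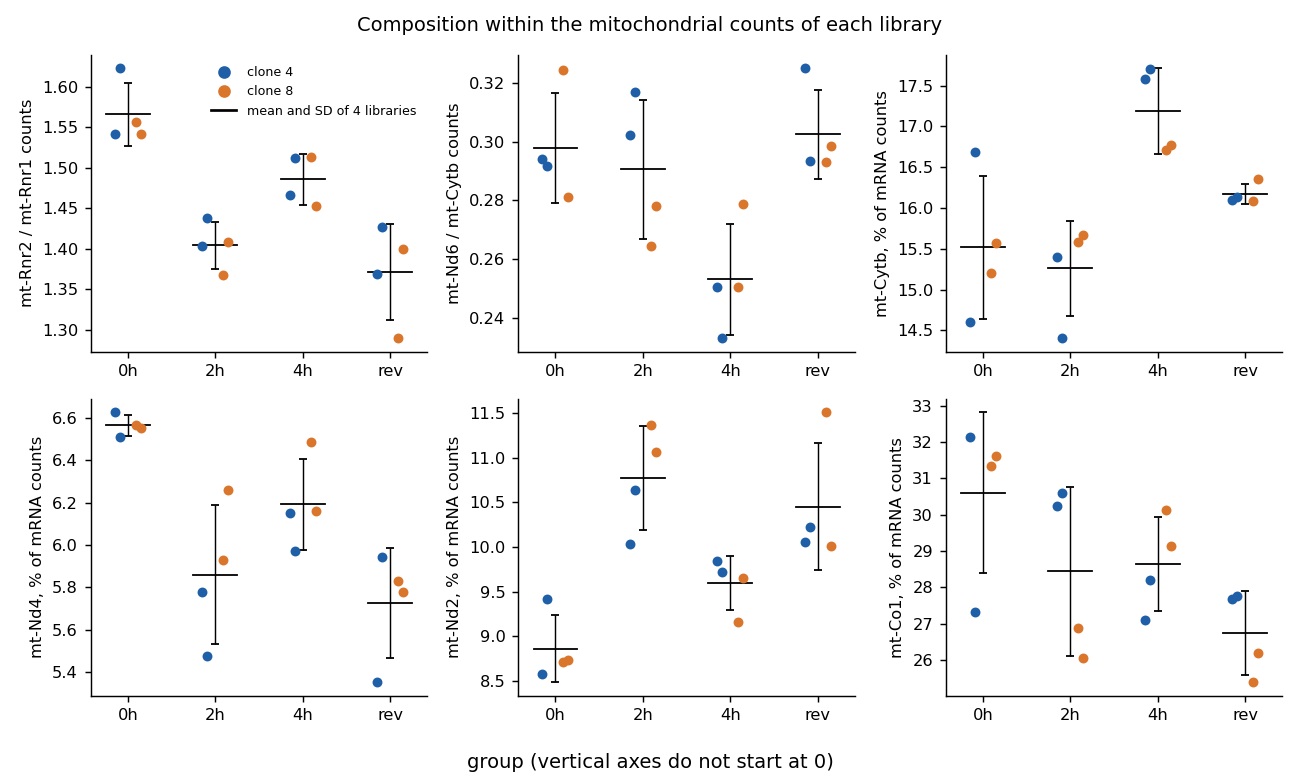
Ratios and shares within the mitochondrial counts of each library, by group (points are libraries coloured by clone, bars the mean and SD of 4; the vertical axes do not start at 0). The mt-Rnr2 to mt-Rnr1 ratio is highest at 0h, the mean mt-Nd6 to mt-Cytb ratio is lowest and the mt-Cytb share highest at 4h, and the mt-Nd4 share is highest at 0h.

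Of the nuclear genes that build the same complexes, at 2h, 2 of 36 complex I subunits, 0 of 9 complex III, 0 of 11 complex IV and 2 of 15 tested ATP synthase subunits were called, all 4 lower, where 17.0% of all tested genes were called. The medians were -0.11, -0.10, -0.11 and -0.06 in that order, against 0.00 over all genes. The called subunits were Ndufv3 at -0.49 (SE 0.12, adjusted p = 0.00906), Ndufab1 at -0.37 (SE 0.12, adjusted p = 0.0351), Atp5e at -0.74 (SE 0.23, adjusted p = 0.031) and Atp5k at -0.51 (SE 0.17, adjusted p = 0.0483), all by edgeR's quasi-likelihood test. At 4h only Ndufb11 of complex I was called in these 4 lists, where 12.9% of all genes were called, and none was called at rev against 4h, where 9.61% were. Between the clones, 8 complex I, 2 complex III, 3 complex IV and 3 ATP synthase subunits were called higher in clone 8 and 1, Cox4i1 of complex IV, lower, of the same 36, 9, 11 and 15 tested, where 34.9% of all genes were called. The largest value in complex I was that of Ndufv2, at 0.56 (SE 0.08, adjusted p = 1.33e-05). The median over complex I subunits was 0.11, against -0.24 over the 7 mitochondrial mRNAs tested.

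Polrmt, the mitochondrial RNA polymerase, was lower at 2h than at 0h, at -0.65 (SE 0.12, adjusted p = 0.00111) by edgeR's quasi-likelihood test, and rose from 2h to 4h by 0.47 (SE 0.12, adjusted p = 0.0153). At rev it was again lower than at 0h, at -0.47 (SE 0.12, adjusted p = 0.0181). In its list of transcription and replication genes, 1 was higher and 2 were lower of 16 tested at 2h, where 17.0% of all genes were called, with a median of -0.14. At 2h the processing list had 4 genes higher and 2 lower of 16 tested, against the same 17.0%, with a median of 0.04. Elac2, the tRNA 3′-end nuclease, was at 0.45 (SE 0.11, adjusted p = 0.00898), Trmt10c, a subunit of RNase P, at 0.50 (SE 0.14, adjusted p = 0.0202) and Grsf1, an RNA granule protein, at 0.46 (SE 0.10, adjusted p = 0.00503), while Fastkd1 fell, at -0.74 (SE 0.17, adjusted p = 0.00515). Elac2 and Trmt10c were also called at 4h, at 0.53 (SE 0.11, adjusted p = 0.00454) and 0.55 (SE 0.15, adjusted p = 0.0175). Among regulators of mitochondrial gene expression, 5 of 8 tested were higher and 0 lower at 2h, against 17.0% of all genes called, with a median of 0.37. The largest value was that of Myc, at 3.97 (SE 0.48, adjusted p = 2.52e-05), a known early target of ERK, which fell back at rev against 4h, at -3.20 (SE 0.43, adjusted p = 1.08e-04).

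Of 77 tested mitochondrial ribosomal proteins, 2 were called at 2h, both lower, where 17.0% of all genes were called, with Mrps12 at -0.69 (SE 0.12, adjusted p = 9.79e-04), and 1, Mrpl22, was called higher at 4h, where 12.9% were called. Of 17 mitochondrial aminoacyl-tRNA synthetases, 1 was called at 2h, Vars2, and 1 at 4h, Iars2, both lower, against the same shares of 17.0% and 12.9%. Cars2, which charges the cysteine tRNA, was not called in the pooled groups at 2h. Its 2h change was higher in clone 8 than in clone 4 by 1.15 (SE 0.25, adjusted p = 0.00286, edgeR's quasi-likelihood test). It was the only 1 of the 17 called for that clone difference, where 7.94% of all genes were called. The value for mt-Tc was -0.77 (SE 0.37) (adjusted p = 0.213, same test), and all 11 tested mitochondrial genes had a negative value there. Lars2, listed as the leucine synthetase, took 5.02% to 12.7% of all counts against at most 0.00419% for any other synthetase, so its count was not read as a synthetase level.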

How the data were processed

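Ribosomal-RNA-depleted total RNA of 16 libraries was sequenced. The deposited values are raw counts per gene, made by the authors; the submitters' processing notes name bcl2fastq 2.19.1, STAR 2.5.3a and build mm10, while the counting program, its annotation, its strand setting and its treatment of reads with several matches are not given in the sources used here. Per the labels' protocols, RNA was depleted of rRNA with a NEBNext kit before library preparation with NEBNext Ultra II. Gene IDs were placed with GENCODE M21 (52489 of 52636 matched).

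Genes with low counts were dropped by edgeR's filterByExpr, given the groups, at a minimum count of 10 and a minimum total of 15; the remaining 12742 genes were scaled by TMM and tested with edgeR 4.0.16 (quasi-likelihood test, limma 3.58.1, R 4.3.3) over all 16 libraries with group and clone as terms. Differences between clones in a change were tested as interactions in a model with 1 term for each of the 8 group and clone pairs. P-values were adjusted by Benjamini-Hochberg over all tested genes and called at an adjusted p under 0.05. The mt-Nd6 to mt-Cytb log2 count ratio was compared by exact two-sided permutation (70 arrangements for 4 against 4 libraries, 1296 for clones exchanged within groups). Nuclear copies were found with blastn 2.17.0 against GENCODE M21 transcripts, at 95% identity or more over at least 50 bases. The test of 4h against 0h was checked on simulated data whose changes were larger than those of the mitochondrial genes. The tests of clone differences were not checked in this way. Figures used Python 3.11.15, pandas 2.3.3 and matplotlib 3.10.9.

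Values in every library are given for both rRNAs, mt-Nd6, mt-Cytb, mt-Co1, mt-Atp6, the 3 tRNAs with the highest mean count and called mitochondrial genes. From each list of nuclear genes up to 3 called genes with the largest change in each direction were eligible to be named, if the group with more counts averaged 50 or more. The mitochondrial genes and the lists were chosen with earlier results of these data known. Alternatives were library totals or TMM without mitochondrial genes and features above 1%, no filter, an adjusted p under 0.01, no clone term, each clone alone, a replicate block, DESeq2 1.42.0, leaving out each library, and other partner genes in the ratio.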

Additional observations from a re-analysis of the deposited data

Results flagged for a closer look

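In the rev group, mt-Co1 in clone 8 library 2 stood at 1477 CPM, far below the other 3 libraries, which lay between 2644 and 2800.3. The mt-Nd6 to mt-Cytb count ratio in rev clone 4 library 1 was 0.325, above the other 3 rev libraries. These were 2 single libraries standing apart among 60 sets of 4 libraries examined, and chance gives about 1 in 20 such sets.

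The change from 0h to 2h differed between the clones for 4 genes, by edgeR's quasi-likelihood test on the interaction: -0.98 for mt-Rnr1, -0.99 for mt-Rnr2, -0.97 for mt-Co1 and -0.82 for mt-Nd6 on the log2 scale, each lower in clone 8. The 2h libraries of clone 8 also had the lowest share of counts in the 6 abundant nuclear features, and the part of that in the difference was not tested.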

How the results depend on the processing

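The count of called mitochondrial genes depended on the processing. The counts below stand without the share of all genes called under each setting and are not read against it. At 2h against 0h (1 called) it was 0 with library totals, 4 with no filter, 8 in clone 4 alone and 0 in clone 8 alone. At 4h against 0h (0) it was 3 with no filter and 1 in clone 4 alone. At 4h against 2h (1) it was 0 at an adjusted p under 0.01, 0 with library totals, 2 with no filter and 3 in clone 4 alone. At rev against 4h (0) it was 4 with no filter and 4 in clone 4 alone. At rev against 0h (2) it was 0 at the stricter threshold, 0 with library totals, 7 with no filter, 0 without the clone term, 8 in clone 4 alone and 0 in clone 8 alone, and 0 to 4 with 1 library left out. At rev against 2h (0) it was 4 with no filter and 1 in clone 8 alone. For clone 8 against clone 4 (2) it was 0 at the stricter threshold, 0 with library totals, 8 with no filter and 0 to 9 with 1 library left out. For the clone difference at 2h (4) it was 0 at the stricter threshold, 0 with library totals, 8 with no filter, 1 with DESeq2 and 0 to 6 with 1 library left out. For the clone difference from 4h to rev (0) it was 5 with library totals, 3 with no filter and 0 to 5 with 1 library left out. TMM without mitochondrial genes and abundant features kept every count within 1.5 times. With no filter more genes enter the fit, among them many near 0; the cause of the other changes was not tested.

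The log2 ratio of mt-Nd6 to mt-Cytb at 4h against 0h was 0.029 with mt-Nd5 as partner and -0.090 with the summed plus-strand mRNAs, and at 4h against 2h it was 0.064 and -0.027. Between clones it was 0.0052 with mt-Nd5. With 1 library left out it ran from -0.081 to 0.0065 at 2h against 0h (reversed values 0.0045, 0.0065), from -0.012 to 0.065 at rev against 0h (-0.012, -0.0039) and from -0.062 to 0.0064 between clones (0.0012, 0.0056, 0.0064). The cause was not tested.

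The deviations of libraries with the same number correlated little (12 correlations from -0.13 to 0.12, 1 of them above 0.1). Counting noise enters every gene in these correlations, so they cannot exclude that such libraries share a culture or day. Whether the numbers pair the libraries is not known. With a replicate block, 1 gene was called at rev against 0h and 1 between clones, and the block moved no other count of called genes by over 1.5 times. Of the 22 tRNAs, 20 had too few counts to be tested, and the cause was not tested.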
